A study of Mus musculus with 9 samples.

Results

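The immediate early genes described here are Fos, Fosb, Jun, Junb, Egr1, Egr2, Atf3, Ier2, Nr4a1 and Dusp1, in RNA of mouse left ventricle. They were chosen by gene symbol from a fixed list of 10, all of which were found among the 20634 genes of the deposited count tables. All 10 passed the filter on low counts, with 10 to 6515 counts per library, and belonged to the 15549 genes tested. In 9 of the 10 genes the 3 highest libraries were the same 3, which came from 3 different groups and were on top in 4.8% of all genes tested. None of the 10 passed an adjusted p of 0.05 in any comparison of genotype or treatment. Of all genes tested, 2.33% passed for genotype over both treatments, and 0.0515% and 0.0386% for genotype within each treatment. For treatment, and for its interaction with genotype, 0% did.

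Each of the 9 libraries came from bulk left ventricle of C57BL/6 mice at 6 months of age. Mice were delta-sarcoglycan (Sgcd) knockouts (KO), a model of inherited cardiomyopathy, or wild type (WT). Ifetroban, an antagonist of the thromboxane-prostanoid (TP) receptor, was given in the drinking water at 25 mg per kg per day from weaning. Vehicle mice drank plain water, and mice of all groups had running wheels at intervals. There were 3 KO ifetroban, 2 KO vehicle, 2 WT ifetroban and 2 WT vehicle libraries. Hearts were perfused with phosphate-buffered saline and RNA was taken from fresh ventricle. No source used here gives the deleted part of Sgcd. The labels do not say that the libraries of a group are separate animals, so the p-values measure the spread between these samples. In bulk tissue, fewer cells of a type and less RNA per cell cannot be told apart.

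Immediate early genes are transcribed within minutes of a stimulus, from transcription factors already present in the cell, and their RNA is short-lived. Growth factors, stretch, ischaemia, calcium entry and cell stress all induce them. Their proteins include the subunits of the AP-1 transcription factor (Fos, Fosb, Jun and Junb), the stress-induced bZIP factor Atf3, the zinc finger factors Egr1 and Egr2, the orphan nuclear receptor Nr4a1 and the nuclear protein Ier2. Dusp1 is a phosphatase that switches off MAP kinases and so closes the loop. In the heart, many of these genes are classical early markers of pressure overload and injury.

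The cyclic AMP response element, bound by CREB and ATF proteins, is one of the control elements through which early genes are switched on, and its core is TGACG. The 250 bases upstream of the RefSeq start are shown for 4 genes that hold it there, Fos, Fosb, Nr4a1 and Dusp1, and for the 2 that do not, Egr2 and Jun. Sequences are from RefSeq (build GRCm38.p6), which matched 8 of the 10 genes, all but Egr1 and Ier2. Each is written 5′ to 3′ on the strand of the gene, and capitals mark TGACG or its reverse complement.
Fos, chr12:85473640-85473889, plus strand: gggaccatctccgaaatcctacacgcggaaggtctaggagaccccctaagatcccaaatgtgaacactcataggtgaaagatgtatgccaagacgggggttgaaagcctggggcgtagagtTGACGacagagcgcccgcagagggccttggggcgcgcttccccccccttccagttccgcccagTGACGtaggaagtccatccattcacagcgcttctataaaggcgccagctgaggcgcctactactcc
Fosb, chr7:19310046-19310295, minus strand: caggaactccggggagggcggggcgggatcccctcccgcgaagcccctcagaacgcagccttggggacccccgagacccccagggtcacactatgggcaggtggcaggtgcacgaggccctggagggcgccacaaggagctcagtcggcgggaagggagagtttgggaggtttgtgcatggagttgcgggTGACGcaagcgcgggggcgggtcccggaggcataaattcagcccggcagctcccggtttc
Nr4a1, chr15:101266596-101266845, plus strand: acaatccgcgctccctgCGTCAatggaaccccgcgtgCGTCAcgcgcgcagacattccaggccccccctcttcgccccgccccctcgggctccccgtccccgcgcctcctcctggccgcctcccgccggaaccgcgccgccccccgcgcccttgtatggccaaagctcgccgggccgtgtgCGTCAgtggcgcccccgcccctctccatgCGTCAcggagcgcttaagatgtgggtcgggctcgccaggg
Dusp1, chr17:26508473-26508722, minus strand: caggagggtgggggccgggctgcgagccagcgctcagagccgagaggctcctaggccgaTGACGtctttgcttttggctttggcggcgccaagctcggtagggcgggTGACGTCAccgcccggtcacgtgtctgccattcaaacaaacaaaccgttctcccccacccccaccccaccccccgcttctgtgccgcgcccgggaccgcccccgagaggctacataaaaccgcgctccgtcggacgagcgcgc
Egr2, chr10:67535249-67535498, plus strand: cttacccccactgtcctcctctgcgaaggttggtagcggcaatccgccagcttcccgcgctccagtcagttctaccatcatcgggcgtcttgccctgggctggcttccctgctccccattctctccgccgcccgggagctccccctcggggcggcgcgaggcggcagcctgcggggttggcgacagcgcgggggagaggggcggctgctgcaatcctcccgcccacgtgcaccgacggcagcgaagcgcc
Jun, chr4:95052223-95052472, minus strand: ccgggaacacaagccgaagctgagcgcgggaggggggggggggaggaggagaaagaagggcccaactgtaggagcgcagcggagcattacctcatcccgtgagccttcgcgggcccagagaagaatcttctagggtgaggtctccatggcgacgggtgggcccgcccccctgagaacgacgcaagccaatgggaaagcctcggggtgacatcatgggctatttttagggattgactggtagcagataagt
TGACG, on either strand, was in 6 of the 8 windows (Fos, Fosb, Junb, Atf3, Nr4a1 and Dusp1), against 17.8% of 32851 RefSeq windows of the same length. Of the 2 without it, Egr2 shared the 3 highest libraries described below with the other genes, and Jun did not. The RefSeq start differs from the deposited gene's first base for 3 of the 8 genes, lying 47 bases inside the gene for Dusp1, 24 for Egr2 and 34706 for Atf3. The full palindrome TGACGTCA, which holds TGACG on both strands, was in the Dusp1 window alone among the 8, against 1.55% of all windows. The early growth response motif GCGNGGGCG was in the windows of Fosb and Nr4a1, against 4.7% of all. TGANTCA, the AP-1 motif, was in 0 of the 8 (6.75% of all), as was the CArG box of serum response factor (1.47% of all). TATAAA was in the Fos window, 28 to 33 bases before the start, against 12.4% of all. A match is a description of letters in the window, and no binding was measured. At shares of 6.75% and 1.47%, a count of 0 does not set the 8 windows apart from all. Bases further upstream were not searched, so a motif missing here may lie outside the window.

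Libraries held 21510263 to 30182955 counts. In each library, the log2 level of a gene relative to its own mean over the 9 libraries followed transcript length. Its Spearman correlation with length over 13051 protein-coding genes is called the length slope here. It was negative in 4 libraries (-0.52 to -0.40: KO ifetroban 1, both KO vehicle libraries and WT vehicle 1) and positive in the other 5 (0.38 to 0.43). Sgcd, the targeted gene, was at 7.3, 12.9 and 13.3 CPM (counts scaled to library size, in the usual CPM unit, with TMM factors) in KO ifetroban libraries 1 to 3, 9.64 and 8.63 in KO vehicle, 23.7 and 23.5 in WT ifetroban, and 8.36 and 20.9 in WT vehicle. Over both treatments the log2 change was -0.90 ± 0.25 (SE; adjusted p = 0.101, edgeR), and -1.10 ± 0.17 without WT vehicle 1 (adjusted p = 0.0103). WT vehicle 1 lay within the KO range, against its label, and is written below as the library labelled WT vehicle 1. It is also among the 4 libraries with a negative length slope, which held the lowest Sgcd levels (7.3 to 9.64 CPM). The 5 with a positive slope were at 12.9 to 23.7 CPM. The part of the length slope in its Sgcd level was not tested. One label field of KO ifetroban 1 says vehicle, while its title and source name say ifetroban, by which it was grouped. For the 10 genes, each comparison that uses either library is given with and without it.

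Positions are those of mm10. Fos lies on chromosome 12 (85473890 to 85477273), Fosb on chromosome 7 (19302721 to 19310045), Jun on chromosome 4 (95049034 to 95052222) and Junb on chromosome 8 (84976909 to 84978748). Egr1 lies on chromosome 18 (34859823 to 34864984), Egr2 on chromosome 10 (67535475 to 67542188) and Atf3 on chromosome 1 (191170296 to 191218039). Ier2 lies on chromosome 8 (84661331 to 84662852), Nr4a1 on chromosome 15 (101266846 to 101274792) and Dusp1 on chromosome 17 (26505590 to 26508519). All are protein-coding, and the counts cover the whole gene without a split by exon. Per kilobase of the longest transcript, the mean level over 9 libraries was highest for Dusp1, at 54.1 CPM per kb, followed by Jun and Junb (34.1 each), Ier2 (30), Egr1 (27.8), Nr4a1 (19.3), Fos (14.8), Atf3 (5.73), Fosb (1.4) and Egr2 (0.707).

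Fos, a partner in AP-1 that has to pair with a Jun protein, was at 57.5, 11.7 and 7.34 CPM in KO ifetroban libraries 1 to 3 and at 72.7 and 10.6 CPM in KO vehicle libraries 1 and 2. It was at 5.13 and 17.1 CPM in WT ifetroban libraries 1 and 2 and at 87 and 12.3 CPM in WT vehicle libraries 1 and 2. One library in each of 3 groups was high, the other 6 were at 17.1 CPM or less, and the groups overlapped in every comparison. The means were 25.5 ± 27.8 CPM in KO ifetroban (SD, n = 3), 41.7 ± 43.9 CPM in KO vehicle (n = 2), 11.1 ± 8.44 CPM in WT ifetroban (n = 2) and 49.7 ± 52.8 CPM in WT vehicle (n = 2), so that in KO ifetroban, KO vehicle and WT vehicle the SD was larger than the mean.

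Fosb, a Fos relative expressed at a lower level here, was at 7.95, 1.49 and 0.403 CPM in KO ifetroban and 19 and 0.963 CPM in KO vehicle. It was at 0.807 and 1.21 CPM in WT ifetroban and at 13.7 and 2.1 CPM in WT vehicle. The same 3 libraries stood out, with KO vehicle 1 the highest, and the range of 47-fold between the highest and the lowest library was the widest of the 10 genes. The lowest library rests on 10 counts.

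Jun, which pairs with Fos proteins or with itself, was at 109, 83.2 and 82.8 CPM in KO ifetroban and 127 and 73.2 CPM in KO vehicle. It was at 99 and 126 CPM in WT ifetroban and 168 and 110 CPM in WT vehicle. Jun was the flattest of the 10, with a 2.29-fold range, and the only one for which KO ifetroban 1 was not among the 3 highest libraries. Its antisense neighbour Junos overlaps it, and no source used here says whether the counting used strand, but Junos had only 1 to 14 counts per library, against 1824 to 3338 for Jun.

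Junb, an AP-1 subunit with weaker activating power than Jun, was at 99.7, 51.7 and 35.9 CPM in KO ifetroban and 110 and 43 CPM in KO vehicle. It was at 26.2 and 30 CPM in WT ifetroban and 121 and 37.2 CPM in WT vehicle. The 3 high libraries lay between 99.7 and 121 CPM, and the other 6 between 26.2 and 51.7 CPM. Both WT ifetroban libraries were below all 3 KO ifetroban libraries and below both WT vehicle libraries.

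Atf3, a stress-induced repressor of the same bZIP superfamily, was at 13.4, 10.6 and 4.24 CPM in KO ifetroban and 16.1 and 5.74 CPM in KO vehicle. It was at 2.5 and 7.99 CPM in WT ifetroban and 37.6 and 4.05 CPM in WT vehicle. The library labelled WT vehicle 1 stood alone at the top, 4.7-fold over the median library, while KO vehicle 1 was 2.02-fold and KO ifetroban 1 was 1.68-fold over it.

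Egr1, a zinc finger factor induced through serum response factor, was at 187, 101 and 38.7 CPM in KO ifetroban and 247 and 74.4 CPM in KO vehicle. It was at 34.4 and 70.7 CPM in WT ifetroban and 287 and 81.4 CPM in WT vehicle. Its profile over the libraries was the closest of the 10 to their mean profile.

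Egr2, its relative at the lowest level per kilobase of the 10 genes, was at 3.93, 2.06 and 1.01 CPM in KO ifetroban and 4.89 and 1.85 CPM in KO vehicle. It was at 0.565 and 0.749 CPM in WT ifetroban and 2.92 and 0.891 CPM in WT vehicle. All 5 KO libraries exceeded 3 of the 4 WT libraries, all but the one labelled WT vehicle 1.

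Nr4a1, an orphan nuclear receptor also known as Nur77, was at 65.7, 24 and 13.2 CPM in KO ifetroban and 112 and 29.7 CPM in KO vehicle. It was at 9 and 13.1 CPM in WT ifetroban and 164 and 12.9 CPM in WT vehicle. The library labelled WT vehicle 1 was 12.8-fold over its own replicate, the widest gap within WT vehicle. As with Egr2, all 5 KO libraries exceeded the other 3 WT libraries, though KO ifetroban 3 and WT ifetroban 2 were almost level.

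Ier2, a small nuclear protein of the early response, was at 69.5, 34 and 24 CPM in KO ifetroban and 67.9 and 31.6 CPM in KO vehicle. It was at 23.7 and 34.5 CPM in WT ifetroban and 88.7 and 37.1 CPM in WT vehicle. The 6 libraries outside the high 3 ranged only from 23.7 to 37.1 CPM.

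Dusp1, the feedback phosphatase, was at 144, 95.3 and 77.3 CPM in KO ifetroban and 165 and 89.6 CPM in KO vehicle. It was at 81.8 and 125 CPM in WT ifetroban and 238 and 111 CPM in WT vehicle. Its high libraries were 1.29-fold to 2.14-fold over the median library, a smaller excess than that of Fos (4.65-fold to 7.04-fold).

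**Figure D1:**
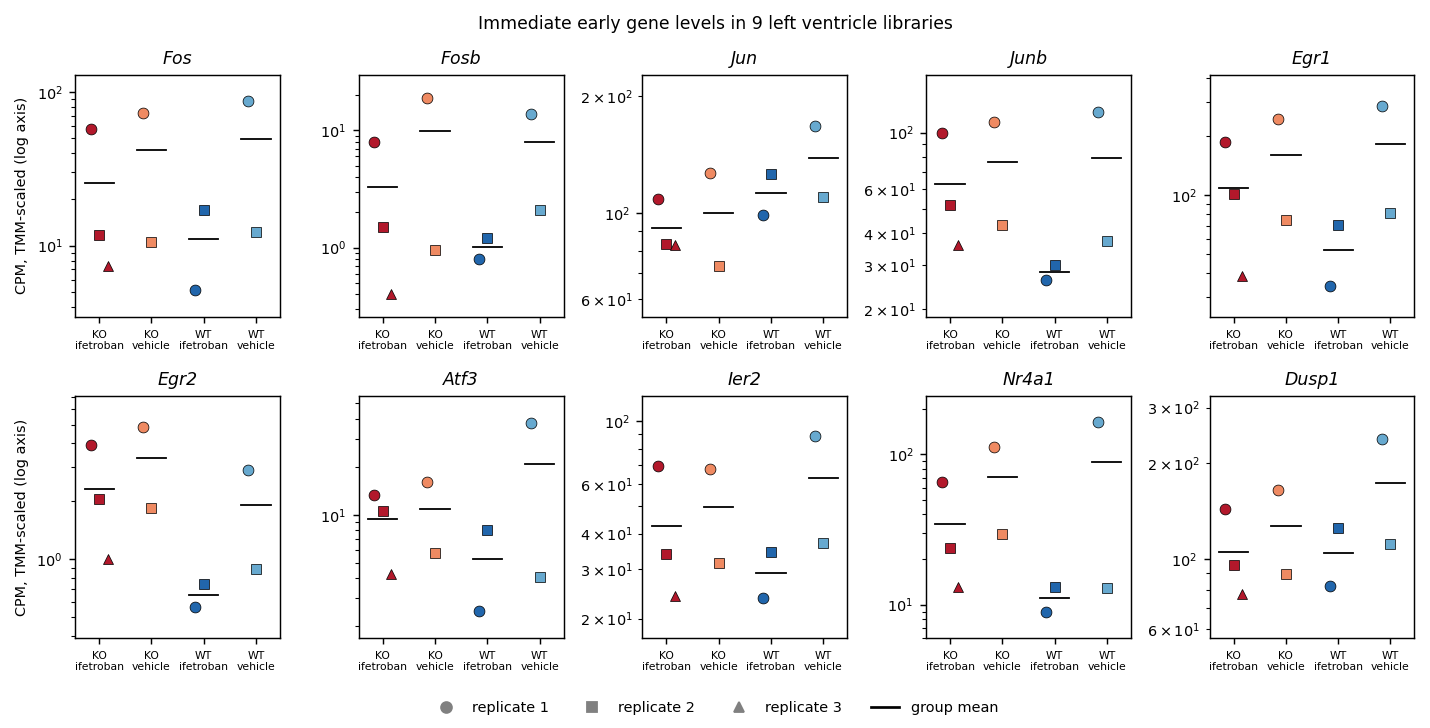
Level of each of the 10 immediate early genes in CPM (log axis), 1 point per library with a line at the group mean, in KO ifetroban (3), KO vehicle (2), WT ifetroban (2) and WT vehicle (2). In Fos the high libraries are at 57.5, 72.7 and 87 CPM, 1 in each of 3 groups, and the other 6 at 5.13 to 17.1 CPM.

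The same 3 libraries, KO ifetroban 1, KO vehicle 1 and the one labelled WT vehicle 1, were thus the highest for 9 of the 10 genes (all but Jun). They were picked out after the levels had been seen, so as a set they are described and not tested against the others. Dixon's test, given below, flags the library labelled WT vehicle 1 from these same levels. Of all 15549 genes tested, 747 (4.8%) had these 3 libraries on top. In 5 of the 10 genes (Fos, Fosb, Junb, Egr1 and Nr4a1) each of the 3 was also over 2-fold above the median library, as it was in 18 of all genes tested (0.116%) with these 3 on top. Ranked from 1 (highest), the library labelled WT vehicle 1 averaged 1.3 over the 10 genes and was highest for 8, KO vehicle 1 averaged 1.9 and was highest for the other 2 (Fosb and Egr2), and KO ifetroban 1 averaged 3. At the other end, WT ifetroban 1 averaged 8.5 and was lowest for 7 genes, and KO ifetroban 3 averaged 7.6.

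The mean of the 10 genes' log2 CPM, each centred on its own mean over the 9 libraries, was 0.93, -0.19 and -1.01 in KO ifetroban and 1.31 and -0.44 in KO vehicle. It was -1.21 and -0.46 in WT ifetroban and 1.56 and -0.48 in WT vehicle. The 3 high libraries are all among the 4 with a negative length slope, but the fourth of these, KO vehicle 2, was at -0.44, near the libraries with a positive slope (-1.21 to -0.19). The part of the length slope in the pattern was not tested.

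**Figure D2:**
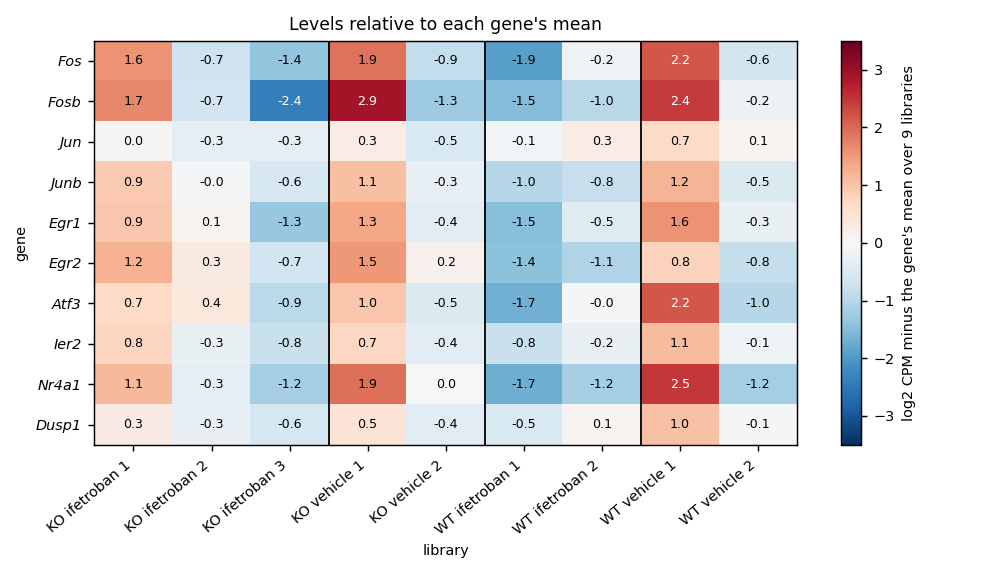
Centred log2 CPM (difference from the gene's mean over 9 libraries) of the 10 genes by library, with the libraries grouped as KO ifetroban, KO vehicle, WT ifetroban and WT vehicle. KO ifetroban 1, KO vehicle 1 and the library labelled WT vehicle 1 lie above the mean for all 10 genes, while WT ifetroban 1 and KO ifetroban 3 lie above it for 0.

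Between libraries of one group, the genes differed by more than most. In KO ifetroban the highest library was 1.32-fold (Jun) to 19.7-fold (Fosb) over the lowest, with a median of 3.54-fold over the 10 genes. In KO vehicle it was 1.73-fold (Jun) to 19.7-fold (Fosb), with a median of 2.73-fold. In WT vehicle it was 1.53-fold (Jun) to 12.8-fold (Nr4a1), with a median of 3.4-fold, whereas in WT ifetroban it was 1.14-fold (Junb) to 3.33-fold (Fos), with a median of 1.48-fold. The SD of log2 CPM within groups was 2.04 for Fosb, 1.68 for Fos, 1.51 for Nr4a1, 1.34 for Atf3 and 1.12 for Egr1, against a median of 0.23 over all genes tested. These 5 genes stood at percentiles 99.06 to 99.95 of that spread over all genes tested, and Jun, with an SD of 0.36, at percentile 76.07. Between 20.2% (Atf3) and 53.6% (Egr2) of a gene's variation lay between the 4 groups, against a median of 41.6% over all genes tested.

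The comparison of genotypes asks whether hearts without delta-sarcoglycan differ in early gene expression. Over both treatments, 0 of the 10 genes passed an adjusted p of 0.05 (edgeR's quasi-likelihood test, Benjamini-Hochberg adjustment over all genes), where 2.33% of all genes did (363, and 51 to 475 with 1 library left out). Estimates in KO over WT were above 0 for 7 of 10, with a median log2 change of 0.48 against -0.02 over all genes tested, and ran from -0.38 ± 0.18 (Jun, SE) to 1.31 ± 0.50 (Egr2). Egr2, the one gene with an unadjusted p under 0.05 (16.1% of all genes), had an unadjusted p of 0.0249 and an adjusted p of 0.234 in edgeR's test. Its KO libraries were at 1.01 to 4.89 CPM, against 0.565 to 2.92 CPM in WT, and overlapped. For 0 of the 10 genes were all KO libraries on one side of all WT libraries, where 4.62% of all genes were higher and 2.38% lower in KO in this way.

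These estimates moved with the libraries kept and with the length slope. With the sign of the slope as a term in the model, Fos (-0.62), Fosb (-0.31), Egr1 (-0.12), Ier2 (-0.37) and Nr4a1 (-0.15) were below 0. Both KO vehicle libraries have a negative slope and both WT ifetroban libraries a positive one, so slope and group are partly confounded. Without the library labelled WT vehicle 1, 9 of 10 were above 0, with a median of 1.09 and Nr4a1 at 1.94. Without KO ifetroban 1, 5 of 10 were above 0 and the median was -0.03, and without WT ifetroban 1, the lowest library, 6 of 10 were above 0 and the median was 0.11. Without all 3 high libraries, an alternative added after seeing the data, 5 of 10 were above 0, the median was 0.08 and Egr2 was at 1.18. Egr2, Junb and Jun kept their direction under each of the 18 alternatives run (Egr2 from 0.72 to 1.87, Junb from 0.070 to 1.13 and Jun from -0.56 to -0.22), and 0 of the 10 genes passed the threshold under any of them, with a smallest adjusted p of 0.0641 for Egr2.

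**Figure D3:**
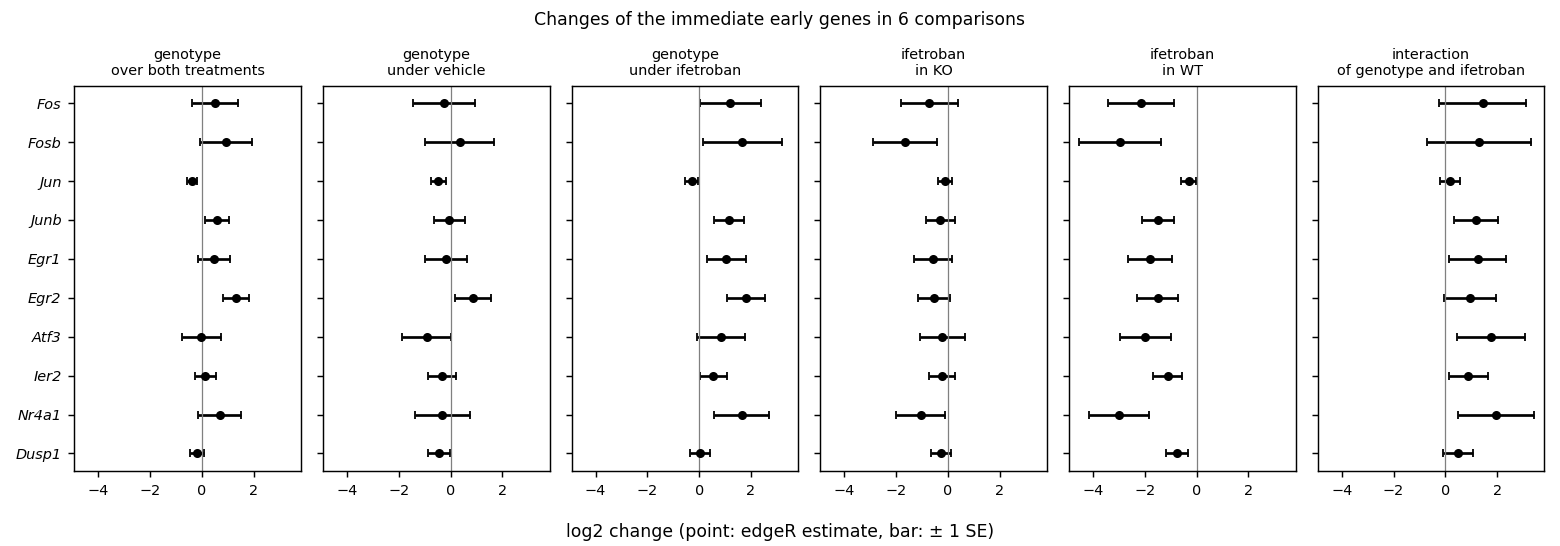
Log2 change of each of the 10 genes (point) ± 1 SE (bar) for KO over WT (over both treatments, then under each), for ifetroban over vehicle (in KO, then in WT) and for the interaction, fitted with edgeR. None passed an adjusted p of 0.05, and the estimates for ifetroban in WT run from -3.0 (Nr4a1) to -0.30 (Jun).

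Under vehicle alone, 0 of the 10 genes passed, where 0.0515% of all genes did (8, and 2 to 15 with 1 library left out), and 0 had an unadjusted p under 0.05 (7.9% of all genes). KO over WT estimates ran from -0.92 ± 0.94 (Atf3) to 0.85 ± 0.70 (Egr2), with 2 of 10 above 0. Here each group holds one high and one low library, and for all 10 genes the groups overlapped, where 18.3% of all genes were higher and 17.6% lower in KO without overlap. Without the library labelled WT vehicle 1, 9 of 10 estimates were above 0 (median 1.24). Without KO vehicle 1, all 10 were below 0 (median -1.16).

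Under ifetroban, 0 of the 10 genes passed, where 0.0386% of all genes did (6, and 2 to 15 with 1 library left out). Estimates in KO over WT were above 0 for 9 of 10, with a median of 1.1, and the highest were Egr2 at 1.81 ± 0.73 (unadjusted p = 0.0342, adjusted p = 0.476, edgeR), Fosb at 1.66 ± 1.52 and Nr4a1 at 1.63 ± 1.05. For 3 genes (Junb, Egr2 and Nr4a1) all 3 KO libraries were above both WT libraries, where 14% of all genes were, and for 0 were they below (15% of all). Without KO ifetroban 1, the library with the conflicting label, 5 of 10 estimates were above 0 (median 0.21). Egr2 was then at 1.24, Nr4a1 at 0.76 and Junb at 0.64.

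The comparison of treatments asks whether blocking the TP receptor changed these genes. In KO hearts 0 of the 10 passed, where 0% of all genes did, and 0 had an unadjusted p under 0.05 (3.96% of all genes). All 10 estimates of ifetroban over vehicle were below 0, from -1.65 ± 1.23 (Fosb) to -0.13 ± 0.26 (Jun), and the groups overlapped for all 10 (10.4% of all genes were higher and 9.76% lower under ifetroban without overlap). Without KO vehicle 1, all 10 were above 0 (median 0.48), and without KO ifetroban 1 all 10 were below 0 (median -0.96). Without all 3 high libraries, 4 of 10 were above 0 and the median was -0.06.

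In WT hearts 0 of the 10 passed, where 0% of all genes did, and the adjusted p of each was 0.881 in edgeR's test. All 10 estimates of ifetroban over vehicle were below 0, with a median of -1.66 against 0.01 over all genes tested. Nr4a1 was the lowest at -3.0 ± 1.16 (unadjusted p = 0.029), and Junb was at -1.49 ± 0.63 (unadjusted p = 0.041). For 5 genes (Fosb, Junb, Egr1, Egr2 and Ier2) both ifetroban libraries were below both vehicle libraries, where 13.8% of all genes were, and for 0 were they above (17.6% of all). Without the library labelled WT vehicle 1, the median was -0.30, Nr4a1 was at -0.24, Junb at -0.42 and Fosb at -1.08, and Jun and Atf3 were above 0 (0.025 and 0.36). In that fit the remaining WT vehicle library is taken to vary like the other groups.

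The interaction, which sets the response to ifetroban in KO against that in WT, passed for 0 of the 10 genes, where 0% of all genes did, with 0 unadjusted p under 0.05 (1.92% of all genes). Estimates ran from 0.18 ± 0.39 (Jun) to 1.95 ± 1.48 (Nr4a1), all above 0. Without the library labelled WT vehicle 1, 3 of 10 were above 0 and the median was -0.15. Without KO ifetroban 1, 9 of 10 were above 0 and the median was 0.36. These comparisons share groups, so their signs are not separate observations.

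**Figure D4:**
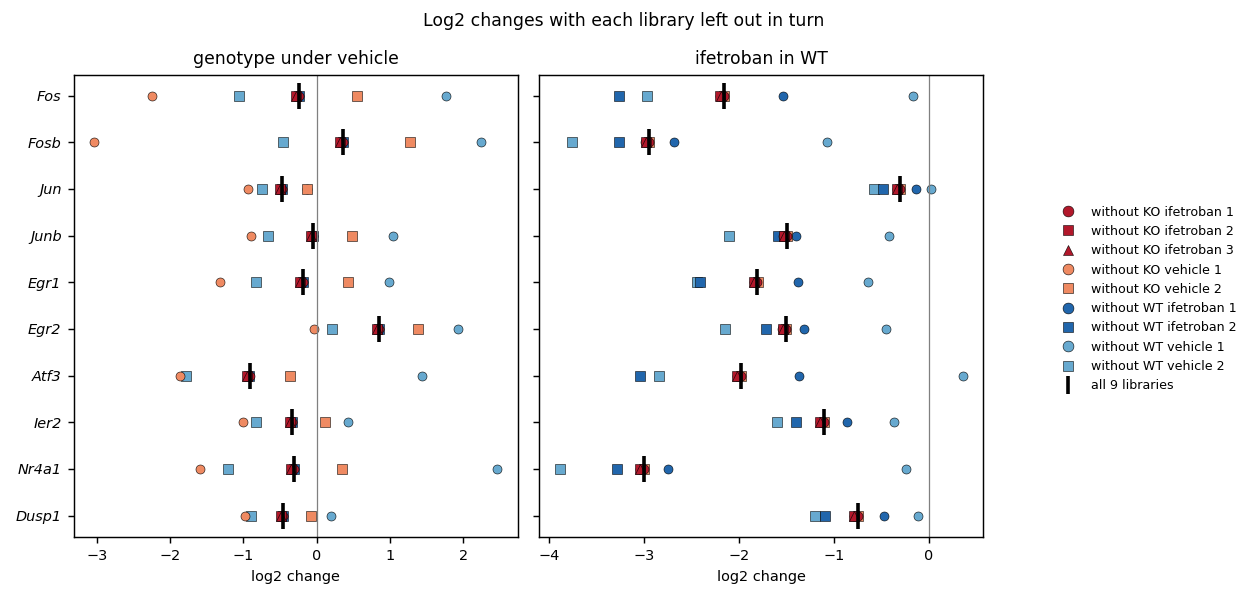
Log2 change of the 10 genes for genotype under vehicle and for ifetroban in WT, with all 9 libraries (bar) and with each library left out in turn (points). For genotype under vehicle, the median of the 10 genes is -1.16 without KO vehicle 1 and 1.24 without the library labelled WT vehicle 1.

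Among 14 tested relatives of the AP-1, EGR and NR4A factors, 0 passed in genotype over both treatments (2.33% of all genes), with a median log2 change of 0.22. That count moved with the libraries kept. Without the library labelled WT vehicle 1, 2 of 15 tested passed, each higher in KO, where 475 of all genes passed. Without KO ifetroban 1, 0 of 14 passed, where 366 of all genes did. Nab2, a corepressor of EGR proteins, was at 0.39 ± 0.12 (adjusted p = 0.123, edgeR), and Batf, a bZIP factor of immune cells, at 0.99 ± 0.38 (adjusted p = 0.234). The same 3 libraries were highest for 2 of the 14 (4.8% of all genes), Maff and the Nr4a1 relative Nr4a2.

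Of 34 other early response genes, 1 rose in KO over both treatments and 0 fell (2.06% and 0.27% of all genes), and the median was 0.22. The one that rose was Ctgf, a matricellular protein tied to fibrosis, with a log2 change of 1.38 ± 0.13 (adjusted p = 0.00154, edgeR), and of 1.34 ± 0.14 without the library labelled WT vehicle 1 and 1.3 ± 0.11 without KO ifetroban 1. Without the library labelled WT vehicle 1, Ptgs2, the prostaglandin synthase known as COX-2, passed as well, at 2.27 ± 0.43 (adjusted p = 0.0257). Ctgf was at 197, 159 and 144 CPM in KO ifetroban and 133 and 136 CPM in KO vehicle, against 54.6 and 67.2 CPM in WT ifetroban and 46.6 and 62.8 CPM in WT vehicle. Its KO and WT libraries did not overlap, and the library labelled WT vehicle 1 was the lowest of all 9, whereas its Sgcd level lay within the KO range. Ccl2, a monocyte chemokine, was at 2.62 ± 0.67 (adjusted p = 0.0867). The same 3 libraries were highest for 11 of the 34 (4.8% of all genes): Btg2, Zfp36, Klf2, Klf6, Cyr61, Sgk1, Csrnp1, Ptgs2, Plk3, Il6 and Cxcl1.

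The other MAP kinase phosphatases and feedback genes, the relatives of Dusp1 in function, had these 3 libraries on top in 0 of 14 (4.8% of all genes). In genotype over both treatments 0 of the 14 passed (2.33% of all genes). The closest to the threshold were Dusp6 at 0.20 ± 0.09 (adjusted p = 0.313) and Dusp7 at -0.19 ± 0.11 (adjusted p = 0.423), 2 ERK and MAP kinase phosphatases. The kinases and transcription factors upstream of the early genes showed the pattern in 0 of 20, with Rps6ka1, a kinase activated by ERK, at 0.50 ± 0.13 (adjusted p = 0.0857) and the p38 kinase Mapk14 at -0.20 ± 0.09 (adjusted p = 0.274). Heat shock genes, a second class of rapidly induced stress genes, showed it in 0 of 9, with Hspb1 at 0.65 ± 0.22 (adjusted p = 0.181) and Hsp90aa1 at 0.58 ± 0.20 (adjusted p = 0.186). At a share of 4.8% of all genes, lists this small would hold few or no genes with the pattern. These counts of 0 do not set the 3 lists apart from all genes.

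**Figure D5:**
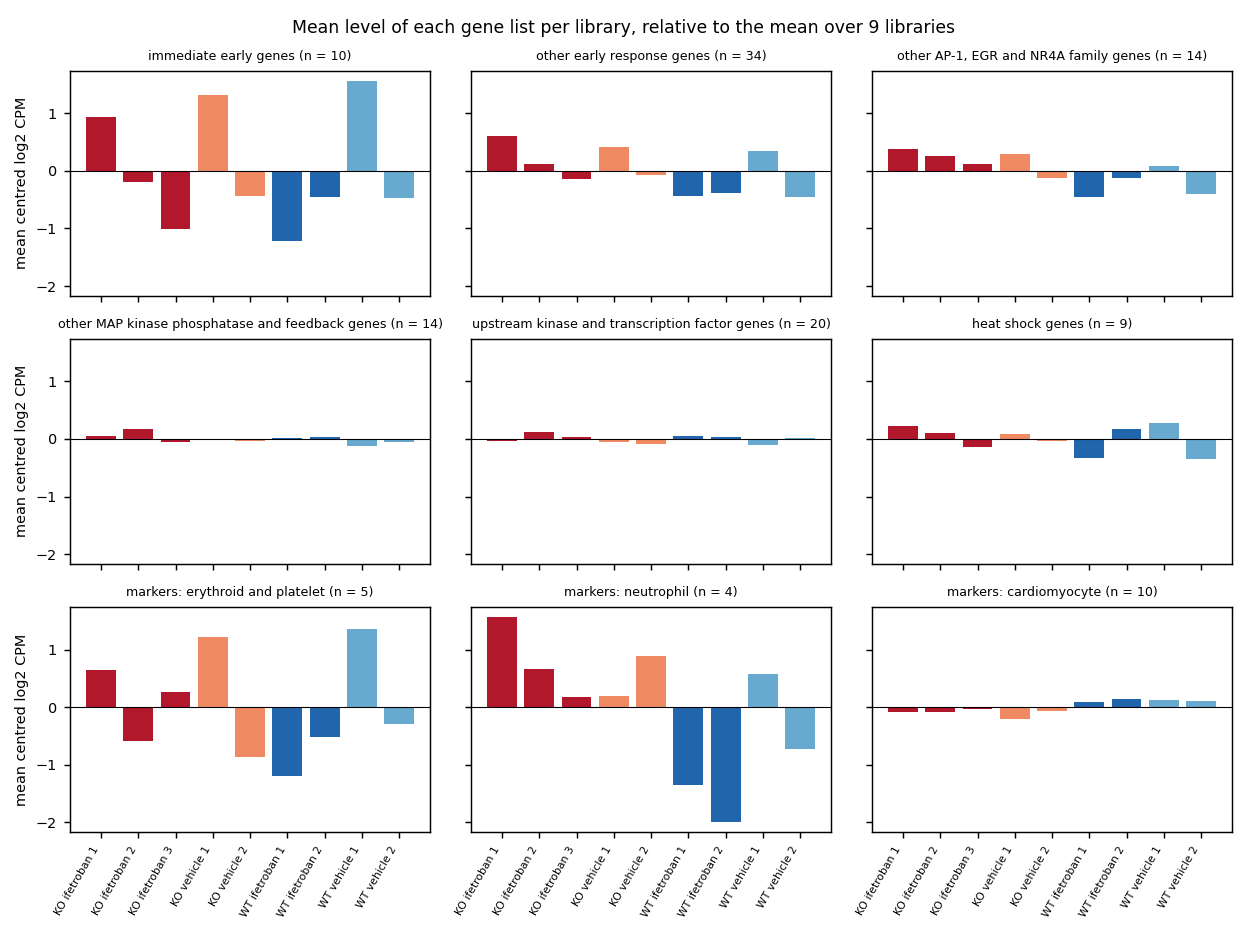
Mean centred log2 CPM (bars) by library of the 10 genes, of 5 other lists (early response, transcription factor family, feedback, upstream and heat shock genes) and of erythroid and platelet, neutrophil and cardiomyocyte markers. The 10 genes reach 1.56 in the library labelled WT vehicle 1, and the other early response genes 0.34.

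The 5 genes closest to the mean profile of the 10, by the root mean square difference of centred log2 CPM over the 9 libraries, were Btg2 (0.168), Apold1 (0.238), Zfp36 (0.338), Nfkbiz (0.398) and Gm42639 (0.419). Btg2, an antiproliferative early gene, was at 161, 78.4 and 48 CPM in KO ifetroban and 179 and 57.8 CPM in KO vehicle, and at 48.4 and 65.3 CPM in WT ifetroban and 265 and 63.5 CPM in WT vehicle. Apold1, an early gene of endothelial cells, was at 43.3, 25.1 and 15.1 CPM in KO ifetroban and 59.1 and 23.8 CPM in KO vehicle, and at 11.7 and 15.1 CPM in WT ifetroban and 66.1 and 14.1 CPM in WT vehicle. Both followed the 3 high libraries. Among the 10 genes, the same measure was 0.182 for Egr1, 0.262 for Junb, 0.33 for Ier2, 0.76 for Jun and 0.89 for Fosb, although each of the 10 is part of that mean.

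Blood cell genes moved with the pattern in part. Of 6 erythroid and platelet markers, 5 were tested, and their summed level was 452, 177 and 449 CPM in KO ifetroban, 795 and 161 CPM in KO vehicle, 111 and 261 CPM in WT ifetroban and 1020 and 354 CPM in WT vehicle. KO vehicle 1 and the library labelled WT vehicle 1 were the highest in both, but KO ifetroban 3, low for the early genes, was as high as KO ifetroban 1. Most of that sum is haemoglobin RNA (Hbb-bs at 281 and Hba-a1 at 146 CPM in KO ifetroban 3). With equal weight for each marker, the mean centred log2 CPM was 0.64 in KO ifetroban 1 and 0.26 in KO ifetroban 3. The platelet chemokine Ppbp was at 2.43, 0.858 and 0.766 CPM in KO ifetroban and 2.96 and 0.401 CPM in KO vehicle, and at 0.444 and 0.416 CPM in WT ifetroban and 3.08 and 0.283 CPM in WT vehicle. Of the 18 genes with the 3 libraries on top and over 2-fold, Gp9, Itga2b and Clec1b are also platelet genes. They were picked here for that pattern. Gp9 had 18 counts or fewer in every library, and Clec1b 19 or fewer. In Gp1bb, another platelet gene, KO vehicle 2 (1.04 CPM) was above the library labelled WT vehicle 1 (0.82 CPM). The platelet factor Pf4, on the fixed list, did not have the 3 libraries on top. KO vehicle 2 was above the library labelled WT vehicle 1, but each of the 3 was the highest of its group. Pf4 was at 18.8, 10.6 and 12.3 CPM in KO ifetroban and 21 and 15.8 CPM in KO vehicle. It was at 10.4 and 7.07 CPM in WT ifetroban and 13.2 and 8.3 CPM in WT vehicle. Neutrophil markers, 4 of 5 tested, summed to 19.6, 10.7 and 7.18 CPM in KO ifetroban, 6.45 and 11.3 CPM in KO vehicle, 2.38 and 1.5 CPM in WT ifetroban and 8.61 and 3.56 CPM in WT vehicle, with KO vehicle 2 above KO vehicle 1 and above the library labelled WT vehicle 1. Summed cardiomyocyte markers, 10 of 10 tested, were at 54800 to 63000 CPM in KO libraries and 66500 to 70900 CPM in WT libraries, without overlap. In genotype over both treatments, 6 of 8 macrophage markers and 2 of 7 fibroblast markers rose in KO, where 2.06% of all genes did. Of the 10 cardiomyocyte and the 4 neutrophil markers, 0 passed. Without the library labelled WT vehicle 1 the macrophage, fibroblast and neutrophil counts were 6, 2 and 3, where 475 of all genes passed. Without KO ifetroban 1 they were 7, 2 and 0, where 366 of all genes passed. The part of these cell types in the levels of the early genes was not tested.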

How the data were processed

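RNA of left ventricle was sequenced in 9 libraries. The authors deposited estimated counts (expected counts) per gene, made from reads with bcl2fastq, STAR and Partek on mm10, per the submitters' processing notes, which give no role or version. Of the values, 28.2% were not whole. Counting rule and strand: not given in the sources used here. One base was subtracted from each deposited end, which made 15566 of 19704 symbols match GENCODE M21 at both ends (70 without it). Counts were rounded, filtered with filterByExpr (minimum count 10; 15549 genes) and scaled with TMM factors. Tests were edgeR's quasi-likelihood ones (version 4.0.16, robust, R 4.3.3), with 4 group means, or an additive model for genotype over both treatments, with Benjamini-Hochberg adjustment at 0.05. SE is the log2 change over the square root of F, intervals use the t distribution with the test's degrees of freedom, and log2 CPM had a prior count of 2. Alternatives used DESeq2 1.42.0, limma 3.58.1 (voom), other scaling, no filter, a length and GC offset, a slope term, a replicate block, each library left out, and KO ifetroban 1 counted as vehicle. The tests were checked on simulated data that held neither the length slope nor a pattern shared by libraries of different groups, so that check does not cover these.

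The genes and lists were chosen with earlier results of these data known. All 10 genes and Sgcd are named always. Of the other lists, genes past the threshold (up to 5 a list) or else the 2 with the smallest p in genotype over both treatments are named, as are the 5 genes (mean of at least 1 CPM) nearest the mean profile. Genes named for the 3-library pattern, Junos, Ccl2 and the blood cell genes were chosen after their values were seen.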

Additional observations from a re-analysis of the deposited data

Results flagged for a closer look

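In each of 6 genes the library labelled WT vehicle 1 stood apart from the other 3 WT libraries by Dixon's test, at the 95% critical value for 4 samples. Its levels were 87 CPM for Fos, 13.7 CPM for Fosb, 121 CPM for Junb, 2.92 CPM for Egr2, 37.6 CPM for Atf3 and 164 CPM for Nr4a1. In all, 20 sets of values were tested (10 genes in the KO and in the WT libraries), and all 6 values are from the WT sets. Each set holds libraries of both treatments. The test uses the same levels by which this library was picked out above, so the flags describe it and are not separate support. In the KO sets the test could not single out a library where KO vehicle 1 and KO ifetroban 1 were both high, so it says nothing about them. The test was run on CPM. On log2 CPM, which was not tested, a gap at the high end takes a smaller part of the range. Chance would mark about 1 in 20 sets if the values followed a normal distribution, and the 10 genes are not independent of each other.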

How the results depend on the processing

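No gene of the 10 crossed the threshold under any of the alternatives run, and of 1160 recomputed log2 changes 1038 kept their direction. The 122 that turned did so as follows, and the cause was not tested. In genotype over both treatments, DESeq2 put Atf3 at 0.005, voom at 0.31 and the replicate block at 0.088; counting KO ifetroban 1 as vehicle gave Fos -0.13 and Ier2 -0.089; the slope term gave Fos -0.62, Fosb -0.31, Egr1 -0.12, Ier2 -0.37 and Nr4a1 -0.15; and leaving out the 3 high libraries, chosen after seeing the data, gave Fos -0.21, Fosb -0.42, Atf3 0.52 and Ier2 -0.072. In genotype under ifetroban, counting KO ifetroban 1 as vehicle gave Fos -0.21, Fosb -0.031, Ier2 -0.005 and Dusp1 -0.26, the length and GC offset Dusp1 -0.084, the slope term Fos -0.25, Ier2 -0.003 and Dusp1 -0.31, and both positive-slope libraries alone and leaving out the 3 Fos -0.20, Fosb -0.033 and Dusp1 -0.24. In genotype under vehicle, counting KO ifetroban 1 as vehicle gave Junb 0.091, the slope term Fosb -0.52, voom Fosb -0.18, Junb 0.038 and Nr4a1 0.35, negative-slope libraries alone Fosb -0.44, the replicate block Junb 0.001, and leaving out the 3 Fosb -1.13, Junb 0.20, Atf3 0.49 and Nr4a1 1.20.

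For ifetroban in KO, the slope term gave Fos 0.52, Jun 0.19, Junb 0.53, Egr1 0.33, Egr2 0.30, Atf3 1.00, Ier2 0.48, Nr4a1 0.44 and Dusp1 0.28, negative-slope libraries alone Fos 0.46, Jun 0.13, Junb 0.38, Egr1 0.21, Egr2 0.22, Atf3 0.29, Ier2 0.48 and Dusp1 0.18, the replicate block Junb 0.044, Atf3 0.29 and Ier2 0.062, and leaving out the 3 Fosb 0.024, Jun 0.19, Junb 0.039 and Atf3 0.39. For ifetroban in WT, positive-slope libraries alone gave Jun 0.026 and Atf3 0.36, and leaving out the 3 gave Jun 0.025 and Atf3 0.36. For the interaction, counting KO ifetroban 1 as vehicle gave Fos -0.14, Fosb -0.29 and Jun -0.01, and leaving out the 3 gave Nr4a1 -0.42.

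With 1 library left out at a time, the ranges of genes that turned were, in genotype over both treatments, Atf3 -0.47 to 1.06, Dusp1 -0.37 to 0.10, Fos -0.23 to 1.41 and Ier2 -0.17 to 0.52. Under ifetroban they were Dusp1 -0.26 to 0.36, Fos -0.21 to 2.30, Fosb -0.032 to 2.20 and Ier2 -0.005 to 0.84. Under vehicle they were Atf3 -1.87 to 1.44, Dusp1 -0.97 to 0.20, Egr1 -1.32 to 0.99, Egr2 -0.038 to 1.92, Fos -2.24 to 1.76, Fosb -3.03 to 2.25, Ier2 -1.0 to 0.43, Junb -0.90 to 1.04 and Nr4a1 -1.59 to 2.47. For ifetroban in KO they were Atf3 -0.78 to 0.71, Dusp1 -0.64 to 0.24, Egr1 -1.20 to 0.55, Egr2 -1.12 to 0.33, Fos -2.13 to 1.26, Fosb -3.34 to 1.74, Ier2 -0.78 to 0.43, Jun -0.47 to 0.33, Junb -0.82 to 0.54 and Nr4a1 -1.93 to 0.21. For ifetroban in WT they were Atf3 -3.04 to 0.36 and Jun -0.57 to 0.025, and for the interaction Atf3 -0.57 to 2.82, Dusp1 -0.15 to 1.02, Egr2 -0.088 to 1.87, Fos -0.54 to 3.46, Fosb -0.56 to 4.73, Jun -0.17 to 0.66 and Nr4a1 -0.81 to 3.25.

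The labels do not say that a replicate number marks a shared batch, so the numbers were not taken as pairs. Deviations of same-numbered libraries from their group means correlated at -0.06 to 0.50. Between groups of 2 libraries, replicates 1 and 2 give the same value by construction. The highest values, 0.50 and 0.33, were between KO ifetroban and WT vehicle, whose libraries differ in the sign of the length slope. The check cannot tell a shared batch from the slope. With the replicate block 0 of the 10 genes passed, and over all genes the count was 550 in place of 363 for genotype over both treatments, 56 in place of 8 under vehicle, 172 in place of 6 under ifetroban and 1 in place of 0 for ifetroban in KO. DESeq2 gave 896, 144 and 290 for the genotype comparisons in that order. With the 3 high libraries left out the counts were 182, 411 and 61, and 444 for ifetroban in KO. With 1 library left out the count for genotype over both treatments was lowest at 51 (without WT ifetroban 2) and highest at 475 (without the library labelled WT vehicle 1), with 58 without KO vehicle 1. In genotype over both treatments the 95% interval of the log2 change was -1.49 to 2.49 for Fos and -0.78 to 0.03 for Jun, whose SDs within groups were 1.68 and 0.36.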
